A study of Mus musculus with 40 samples.

Results

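The SOX transcription factors of mouse melanoma cells were read in every library of the series, with Sox9 and Sox10 at the centre. They were 8 genes of the 51789 in the count table, chosen by name after the Ensembl identifiers had been matched to mouse gene symbols: Sox9, Sox10 and Sox8 of the SoxE family, Sox5, Sox6 and Sox13 of the SoxD family, and Sox4 and Sox11 of the SoxC family. The ratio of Sox9 to Sox10 was also taken in each library. No measured value entered the choice, although earlier results of these data were known when it was made.

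SOX proteins are transcription factors that bind and bend DNA through an HMG box, and members of one family often act on the same sites. Sox10 drives neural crest cells towards melanocytes and glia and remains on in most melanomas, where it acts upstream of Mitf. Sox9 is made in early neural crest and in cartilage, and melanoma cells that lose Sox10 and the pigment programme often carry Sox9 instead, with a more mesenchymal set of genes. SoxD proteins lack a transactivation domain and act beside SoxE proteins, with Sox9 in cartilage and against Sox10 in melanocytes, while the SoxC proteins Sox4 and Sox11 are activators of developing neurons and mesenchyme.

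On GRCm38 (mm10), as annotated in GENCODE M21, Sox9 (ENSMUSG00000000567) lies at chr11:112782224-112787760 on the plus strand and Sox10 (ENSMUSG00000033006) at chr15:79154908-79165240 on the minus strand. Neither overlaps another annotated gene, nor does Sox11 (ENSMUSG00000063632, chr12:27334264-27342574, minus) or Sox13 (ENSMUSG00000070643, chr1:133382303-133424377, minus). Sox4 (ENSMUSG00000076431, chr13:28948919-28953713, minus) overlaps the antisense lincRNA Gm26735 at its 3′ end, and Gm26735 had 0 to 5 counts in a library. Sox5 (ENSMUSG00000041540, chr6:143828425-144781977, minus) overlaps 7 genes, of which Gm44068 on the same strand had 1 to 165 counts and the others 0, so Sox5 values may hold reads of Gm44068. Sox6 (ENSMUSG00000051910, chr7:115470872-116038796, minus) overlaps 2 antisense genes with at most 16 counts, and Sox8 (ENSMUSG00000024176, chr17:25565892-25570686, minus) overlaps 1. The strand used in counting is not given in the sources used here, so reads of antisense partners cannot be told apart.

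Promoter sequences are shown for Sox4, Sox5 and Sox6, 3 members that were lower together in several comparisons below. They are RefSeq entries on GRCm38.p6 with 250 bases before and 50 after a transcription start, on the minus strand in each case, at chr13:28953650-28953949 for Sox4, chr6:143947057-143947356 for Sox5 and chr7:116038695-116038994 for the first of the 6 entries of Sox6. Capitals mark a SOX motif, searched as ACAAAG or ACAATG on both strands.
Sox4: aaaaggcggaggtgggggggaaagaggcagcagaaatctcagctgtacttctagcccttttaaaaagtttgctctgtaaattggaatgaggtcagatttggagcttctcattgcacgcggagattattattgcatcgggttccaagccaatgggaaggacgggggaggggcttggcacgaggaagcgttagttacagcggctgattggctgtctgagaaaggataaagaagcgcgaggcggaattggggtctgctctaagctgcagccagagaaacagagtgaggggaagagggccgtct
Sox5: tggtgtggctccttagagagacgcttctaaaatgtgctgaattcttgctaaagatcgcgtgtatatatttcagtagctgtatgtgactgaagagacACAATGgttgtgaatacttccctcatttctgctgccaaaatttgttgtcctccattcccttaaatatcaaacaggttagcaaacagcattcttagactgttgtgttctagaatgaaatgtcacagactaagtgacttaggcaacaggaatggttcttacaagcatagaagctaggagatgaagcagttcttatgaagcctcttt
Sox6: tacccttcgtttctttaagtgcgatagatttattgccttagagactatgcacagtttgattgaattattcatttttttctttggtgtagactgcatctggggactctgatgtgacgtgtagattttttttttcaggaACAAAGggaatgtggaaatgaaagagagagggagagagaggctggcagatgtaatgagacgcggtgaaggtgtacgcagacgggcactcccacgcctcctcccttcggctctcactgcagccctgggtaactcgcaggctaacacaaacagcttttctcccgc
Over 32851 mouse promoters of this length, 18.7% held ACAAAG and 12.6% held ACAATG. Among the members, counting bases from the start, Sox5 held ACAATG at -154, the Sox6 entry shown held ACAAAG at -113, and 5 of the 6 Sox6 entries held at least 1 of these motifs. The E-box CACGTG, the site bound by Bmal1 with Clock, was in 7.15% of promoters and among the 11 member entries only in that of Sox8, and the AP-1 site TGANTCA was in 7.81% of promoters and in none of the 11. These 11 entries belong to 6 of the 8 members, and the promoters of Sox9 and Sox10 were not analysed here. A match is a string of letters and was not tested as a binding site.

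The series asks how the clock factor Bmal1, listed under the symbol Arntl, alters melanoma cell state. It holds 40 QuantSeq 3′ RNA libraries of cultured cells, 2 for each of 20 groups. B16-F10 is a pigmented mouse melanoma line, compared as a control clone (Ctrl) and a Bmal1 KO clone. YUMM2.1 and YUMM1.7 came from mouse melanomas with an oncogenic Braf allele, where YUMM2.1 is heterozygous for Cdkn2a and carries a stabilized β-catenin allele and YUMM1.7 lacks Cdkn2a. aC3 is a single Bmal1-null clone made from YUMM2.1. YUMM2.1, aC3 and YUMM1.7 cells stably carried an empty vector (EV), wild-type Bmal1 (WT-Bmal1) or dHLH-Bmal1, a form without the basic helix-loop-helix part that binds DNA. YUMM2.1 cells with each of these 3 constructs also carried a control hairpin (shNC) or one of 2 hairpins against Myh9, the heavy chain of non-muscle myosin IIA (shMyh9#2 and shMyh9#4). QuantSeq reads the 3′ end of a transcript, so values are compared here between libraries and not between genes, and the unit of level is CPM, the counts relative to library size with TMM factors taken over all 40 libraries.

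Library totals ran from 3643332 to 22970049 counts with a median of 10021164.5. The study calls the samples biological replicates for B16-F10, for YUMM2.1, for YUMM1.7 without naming its construct, and for some of the hairpin cells. For aC3 it speaks only of duplicates. The labels do not say how the cultures of a group were separated, so the p-values below measure the spread between these samples. Fewer cells of a type and less RNA per cell cannot be told apart in such bulk samples. The labels were checked on their targets first. Arntl counts did not separate B16-F10 Bmal1 KO (326 and 240) from Ctrl (319 and 221), and Arntl followed the constructs in part. It was higher in dHLH-Bmal1 than in EV cells of YUMM2.1 (log2 fold change 1.54), YUMM1.7 (1.05) and YUMM2.1 with shNC (0.60). It was not called with WT-Bmal1 in YUMM2.1 (0.10), YUMM1.7 (0.68) or shNC cells (0.27), or with dHLH-Bmal1 in aC3 (0.27). In aC3 it was lower with WT-Bmal1 than with EV (-0.83, adjusted p = 0.0036), and it was higher in EV cells of this Bmal1-null clone than in YUMM2.1 EV (1.09, adjusted p = 0.0105). Where the 3′ end that was read lies outside the deleted or the introduced sequence, these counts check nothing. Myh9 was lower under shMyh9#2 (log2 fold change -1.51 in EV, -2.04 in WT-Bmal1 and -1.69 in dHLH-Bmal1 cells) and less so under shMyh9#4 (-0.52, -0.93 and -0.42). Of 5 melanocytic markers, which sum to 18919 to 25474 CPM in B16-F10, Dct, Tyrp1 and Mlana were at 0 in every library of YUMM2.1, aC3 and YUMM1.7 without a hairpin, where the sum was 10.5 to 20.9 CPM.

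In YUMM2.1, 2 libraries went against their labels. When the deposited YUMM2.1 and YUMM1.7 libraries were matched over 1809 genes to 8 columns of the same names in a supplementary table of the study, 6 columns were nearest to the library of their own name, while YUMM2.1 EV replicate 2 and YUMM2.1 WT-Bmal1 replicate 1 were each nearest to the other. Sox9 followed the same crossing, with 221 and 809 counts in the EV libraries and 230 and 864 in the WT-Bmal1 libraries. The groups below follow the deposited labels, and each member result in which a call or a sign changed with these 2 labels exchanged, or with both libraries left out, is given with that value. Marker genes and gene lists were read as labelled only.

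Across the 20 groups, aC3 cells had the lowest Sox9 and YUMM1.7 cells the lowest Sox10. Sox9 was lowest in aC3 EV cells at 3.76 ± 0.80 CPM (SD, n = 2) and highest in YUMM2.1 WT-Bmal1 shMyh9#2 cells at 408 ± 2.8 CPM. Sox10 was lowest in YUMM1.7 dHLH-Bmal1 cells at 0.456 ± 0.52 CPM, from 8 counts and 1 count, and highest in aC3 dHLH-Bmal1 cells at 574 ± 42 CPM. In the order of Sox10 levels, the 3 YUMM1.7 groups came first, then the 6 hairpin groups that carried WT-Bmal1 or dHLH-Bmal1 together with YUMM2.1 dHLH-Bmal1, then the 3 EV hairpin groups, and then B16-F10, aC3 and the YUMM2.1 EV and WT-Bmal1 cells. The ranges of the last 6 groups in that order, from aC3 EV at 443 ± 7.6 CPM upward, each overlapped that of a neighbour. In the order of Sox9 levels, the libraries overlapped for B16-F10 Bmal1 KO, YUMM2.1 WT-Bmal1 and YUMM2.1 EV, whose means were 43.6, 52.6 and 53.0 CPM, for YUMM2.1 dHLH-Bmal1 with its neighbours in YUMM1.7, for dHLH-Bmal1 shNC, WT-Bmal1 shNC and dHLH-Bmal1 shMyh9#2, and for the highest 2 groups.

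**Figure D1:**
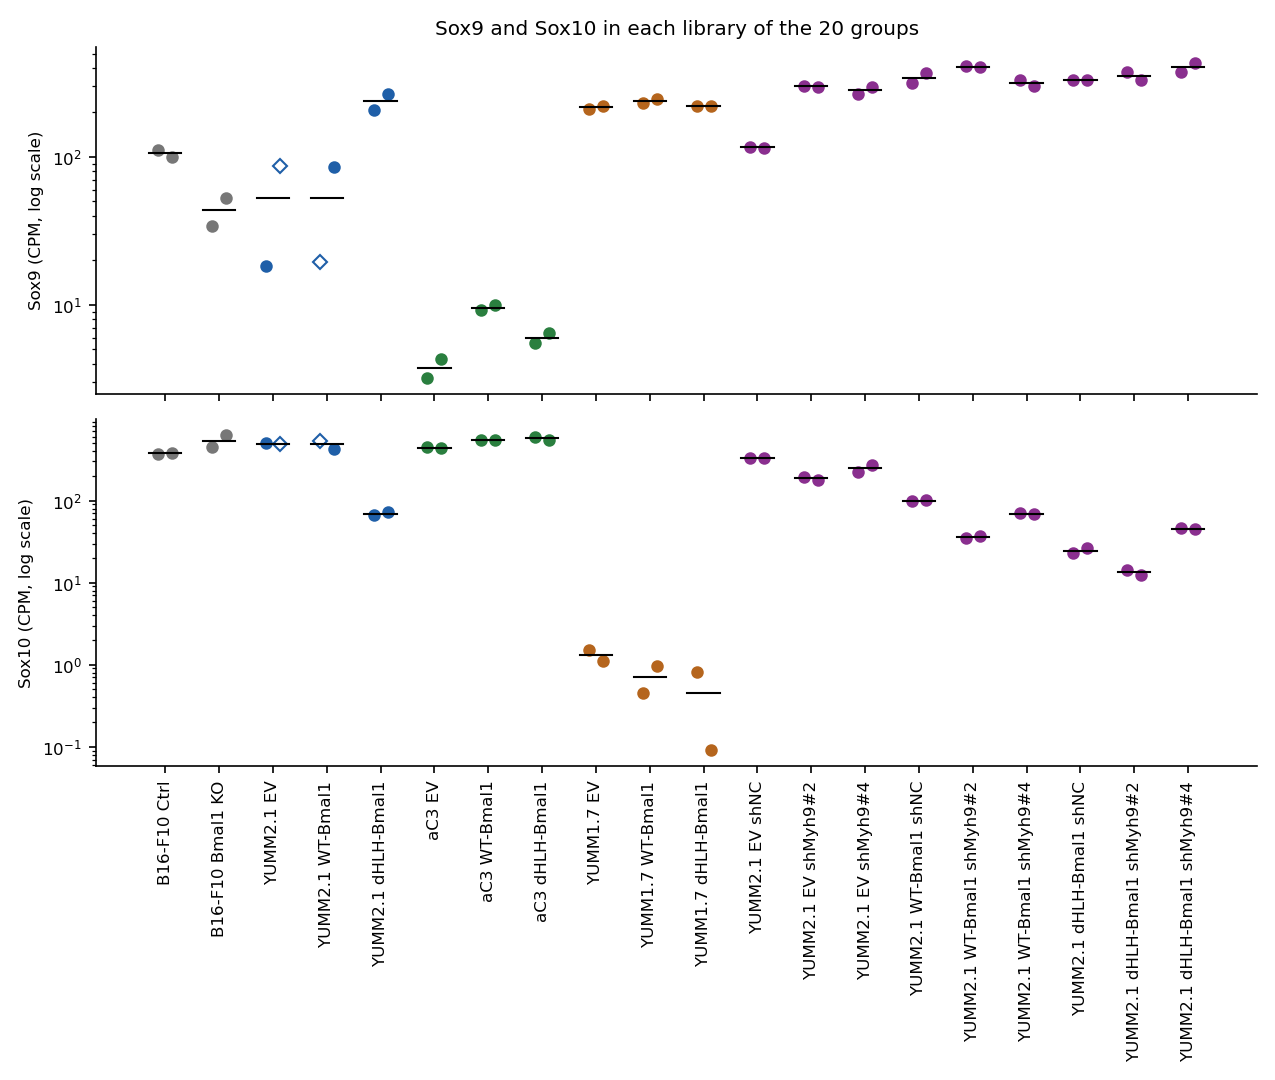
Sox9 (top) and Sox10 (bottom) in CPM on a log axis for each of the 40 libraries, with groups along the x axis and a bar at each group mean (n = 2). Open diamonds mark the 2 YUMM2.1 libraries whose labels are in doubt, which lie at 87.5 and 19.6 CPM for Sox9, and Sox10 lies below 2 CPM in the 3 YUMM1.7 groups and between 12.4 and 630 CPM in the others.

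The ratio of Sox9 to Sox10 counts put the groups in one order, from the lowest in aC3 to the highest in YUMM1.7. It is given as log2 of Sox9 counts over Sox10 counts with 0.5 added to each, as a description with no test, and since each gene has its own 3′ yield only its change between libraries is read. The group means ran from -6.88 ± 0.33 (SD, n = 2) in aC3 EV to 9.33 ± 1.89 in YUMM1.7 dHLH-Bmal1, where 1 library had 1 Sox10 count. The aC3 groups came first, followed by B16-F10 Bmal1 KO (-3.64 ± 0.10), YUMM2.1 EV (-3.62 ± 1.63), YUMM2.1 WT-Bmal1 (-3.55 ± 1.74) and B16-F10 Ctrl (-1.83 ± 0.15). EV shNC cells stood at -1.51, and EV cells with either Myh9 hairpin stood higher, at 0.19 for shMyh9#4 and 0.69 for shMyh9#2. YUMM2.1 dHLH-Bmal1 and WT-Bmal1 shNC cells shared a mean of 1.78, the remaining hairpin groups lay between 2.18 and 4.72, and the YUMM1.7 groups lay above 7. Neighbours overlapped for aC3 EV and dHLH-Bmal1, for B16-F10 Bmal1 KO with YUMM2.1 EV and WT-Bmal1, for YUMM2.1 dHLH-Bmal1 and WT-Bmal1 shNC, and for YUMM1.7 WT-Bmal1 and dHLH-Bmal1.

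**Figure D2:**
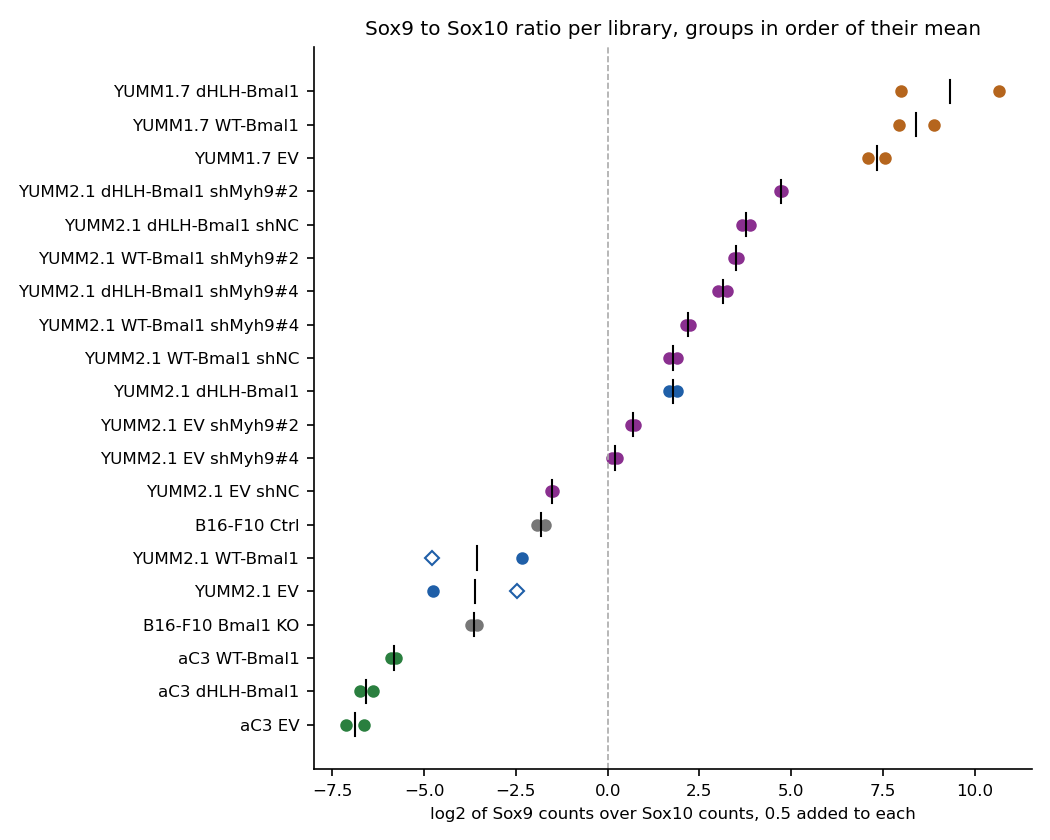
Log2 ratio of Sox9 to Sox10 counts (x axis, 0.5 added to each count) for each library, with the 20 groups on the y axis in order of their mean, drawn as a bar. Open diamonds mark the 2 YUMM2.1 libraries whose labels are in doubt, and the groups run from -6.88 in aC3 EV to 9.33 in YUMM1.7 dHLH-Bmal1.

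The first question was what the constructs did to the SOX genes in YUMM2.1, where Sox10, Sox6, Sox5 and Sox4 fell with dHLH-Bmal1. The test was the quasi-likelihood one of edgeR, adjusted by Benjamini-Hochberg over all genes tested and called at an adjusted p under 0.05. Sox10 was 504 and 485 CPM in EV, 539 and 429 CPM in WT-Bmal1 and 66.0 and 72.1 CPM in dHLH-Bmal1 libraries. Both dHLH-Bmal1 libraries lay far below the 4 others. Sox10 was 7.06-fold lower in dHLH-Bmal1 than in EV (log2 fold change -2.82, standard error 0.16, adjusted p = 0.00062) and 6.96-fold lower than in WT-Bmal1 (log2 -2.80, adjusted p = 0.00063).

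The SoxD and SoxC members followed Sox10 in direction. Sox6 was 173 and 151 CPM in EV, 174 and 136 in WT-Bmal1, and 34.5 and 31.3 in dHLH-Bmal1 libraries, a log2 fold change of -2.28 against EV (standard error 0.17, adjusted p = 0.0013). The 2 dHLH-Bmal1 libraries again stood below all others. Sox5 fell from 36.7 and 28.9 CPM in EV to 10.2 and 8.23 CPM in dHLH-Bmal1 libraries (log2 -1.81, adjusted p = 0.0039). Sox4 fell from 382 and 334 CPM to 223 and 221 CPM (log2 -0.67, standard error 0.12, adjusted p = 0.0161). In all, 4 of the 6 members tested were called and were lower, beside 13.2% of all genes called in this comparison. Against WT-Bmal1 the same 4 were called (Sox6 -2.23, Sox5 -1.70, Sox4 -0.68), beside 13% of all genes. The Sox4 call was lost with both doubtful libraries left out (log2 -0.78, adjusted p = 0.0575 against EV, and -0.67, adjusted p = 0.165 against WT-Bmal1), and also without EV replicate 1 (adjusted p = 0.0903), dHLH-Bmal1 replicate 1 (0.0589) or dHLH-Bmal1 replicate 2 (0.0626) against EV. Against WT-Bmal1 it was lost without WT-Bmal1 replicate 1 (0.148) or 2 (0.0849) or dHLH-Bmal1 replicate 1 (0.0588) or 2 (0.0616).

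Sox9 was higher in the dHLH-Bmal1 libraries, at 209 and 267 CPM, than in any other YUMM2.1 library without a hairpin, and its test depended on the labels. The EV libraries had 18.4 and 87.5 CPM and the WT-Bmal1 libraries 19.6 and 85.6 CPM, so each of these groups held a low and a high library. As labelled, Sox9 differed by 2.2002 on the log2 scale between dHLH-Bmal1 and EV (standard error 0.81, adjusted p = 0.128) and by 0.01 between WT-Bmal1 and EV (standard error 0.80). With the labels exchanged, Sox9 was higher than in EV by 3.66 in dHLH-Bmal1 (standard error 0.15, adjusted p = 2.4e-06) and by 2.18 in WT-Bmal1 (standard error 0.15, adjusted p = 0.0010), and by 1.48 in dHLH-Bmal1 against WT-Bmal1 (adjusted p = 0.00018). With both libraries left out the log2 fold changes were 3.70, 2.21 (adjusted p = 0.0033) and 1.48, where each lone library is assumed to vary like the other groups. With the replicate number as a block, Sox9 was called as labelled in dHLH-Bmal1 against EV (log2 2.60, standard error 0.37, adjusted p = 0.00078) and against WT-Bmal1 (2.57, adjusted p = 0.00081). In EV and WT-Bmal1 cells replicate 1 was the low and replicate 2 the high library. The block takes up this split, so its calls are not independent of the label doubt. Without EV replicate 2 the difference from EV was called (log2 3.70, adjusted p = 0.0344), and without EV replicate 1 or 2 that from WT-Bmal1 was called (adjusted p = 0.0470 and 0.0493).

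WT-Bmal1 against EV in YUMM2.1 called 0 of the 6 members as labelled, beside 0% of all genes by edgeR. At an unadjusted p under 0.05, 0 of the 6 passed as well, and DESeq2 called 1 gene of all. With the labels exchanged, Sox9 alone of the 6 was called, beside 0.705% of all genes, while in dHLH-Bmal1 against EV Sox9 was called higher with 4 members lower, beside 28.7% of all genes, and in dHLH-Bmal1 against WT-Bmal1 likewise, beside 18.9%. The mean log2 ratio of Sox9 to Sox10 rose from -3.62 in EV to 1.78 in dHLH-Bmal1, a difference of 5.40 as labelled and 6.55 with the labels exchanged. Between WT-Bmal1 and EV that difference was 0.07 as labelled, 2.38 with the labels exchanged and 2.44 with both left out.

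**Figure D3:**
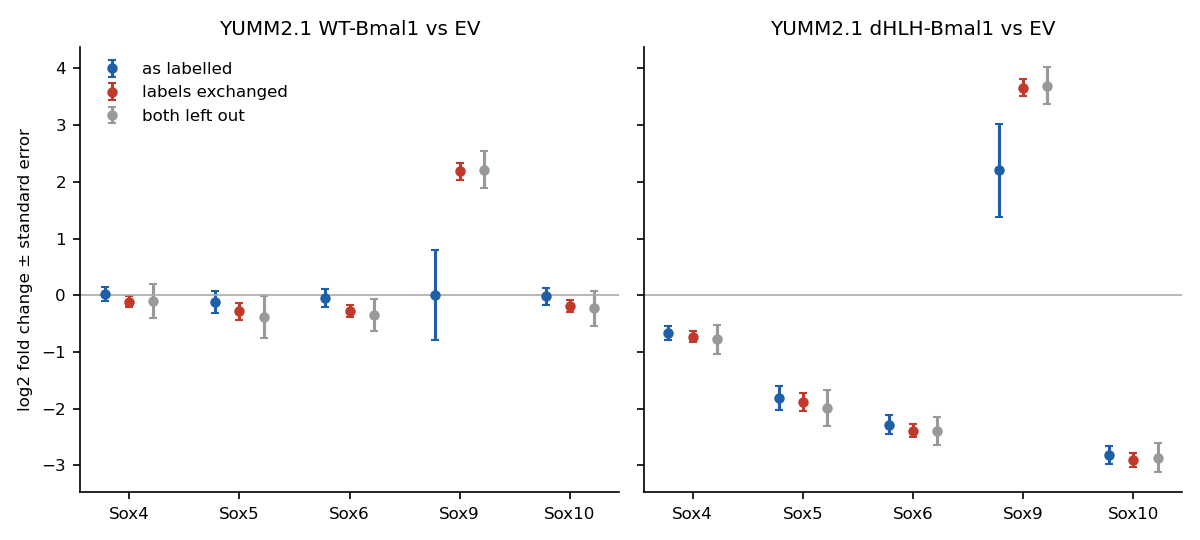
Log2 fold change with its standard error (y axis) of 5 members in YUMM2.1 WT-Bmal1 against EV (left) and dHLH-Bmal1 against EV (right), as labelled (blue), with the labels of 2 libraries exchanged (red) and with both left out (grey). Sox10, Sox6, Sox5 and Sox4 stay below 0 in dHLH-Bmal1 under all 3, while Sox9 in WT-Bmal1 moves from 0.01 to 2.18 and 2.21.

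Of 5 fibroblast markers 1, Col1a1, was called with dHLH-Bmal1. The summed CPM of the 5 was 13.8 in EV, 14.2 in WT-Bmal1 and 244 in dHLH-Bmal1 cells of YUMM2.1, of which Col1a1, a collagen chain, gave 11.3, 11.7 and 239, while Thy1 was at 0 in every library and Lum and Dcn were at or under 0.162 CPM in each group. Pdgfra, a receptor of fibroblasts, was 2.36, 2.203 and 5.11 CPM and was not called (adjusted p = 0.248 for dHLH-Bmal1 against EV). Col1a1 was higher in dHLH-Bmal1 than in EV by 4.44 on the log2 scale (adjusted p = 0.0040), and the part of other cells in the SOX differences was not tested.

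In the Bmal1-null clone aC3 the same constructs went with higher Sox10 and Sox6, not lower. Sox10 was 449 and 438 CPM in EV, 547 and 549 in WT-Bmal1 and 604 and 544 in dHLH-Bmal1 libraries. Both construct groups lay above EV without overlap, by 0.30 for WT-Bmal1 (standard error 0.09, adjusted p = 0.0389) and 0.37 for dHLH-Bmal1 (adjusted p = 0.0147) on the log2 scale. Sox6 was 156 and 167 CPM in EV, 226 and 223 in WT-Bmal1 and 217 and 206 in dHLH-Bmal1 libraries, higher by 0.47 (adjusted p = 0.0022) and 0.39 (adjusted p = 0.0085).

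Sox9 counts in aC3 were few, 36 and 47 in EV, 97 and 98 in WT-Bmal1 and 57 and 61 in dHLH-Bmal1 libraries. At 3.19 and 4.32 CPM in EV against 9.16 and 10.01 CPM in WT-Bmal1, Sox9 was 2.53-fold higher with WT-Bmal1 (log2 1.34, standard error 0.26, adjusted p = 0.0041). With dHLH-Bmal1 it lay between the other groups without overlap, and neither difference was called (log2 0.67 from EV, adjusted p = 0.130, and 0.67 for WT-Bmal1 against dHLH-Bmal1, adjusted p = 0.266). Sox5 rose with WT-Bmal1 from 15.7 and 14.3 CPM to 23.5 and 26.9 CPM (log2 0.74, adjusted p = 0.0066). Sox13, which rested on 9 and 13 counts in EV and 33 and 32 in WT-Bmal1 libraries, was also called (log2 1.66, adjusted p = 0.0413). Sox4 overlapped between all 3 groups, at 430 to 480 CPM.

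In aC3, 5 of 6 members tested were called higher with WT-Bmal1, beside 11.2% of all genes called in either direction and 4.92% called higher. With dHLH-Bmal1 2 of 6 were called, both higher, beside 10.9%, and between WT-Bmal1 and dHLH-Bmal1 0 of 6 were called by edgeR, beside 0.877%, although 2, Sox9 and Sox13, had an unadjusted p under 0.05. These 2 comparisons with EV share the EV libraries. Without EV replicate 1 the WT-Bmal1 calls of Sox9 (adjusted p = 0.0620) and Sox6 (0.0580) were lost, those of Sox10 and Sox13 were lost without any of the 4 libraries compared (adjusted p of 0.194 to 0.267 and 0.129 to 0.247), and that of Sox5 without EV replicate 2 (0.0781) or WT-Bmal1 replicate 2 (0.0875). The dHLH-Bmal1 calls were lost without EV replicate 1 (Sox6 0.129, Sox10 0.114) or EV replicate 2 (Sox6 0.0700, Sox10 0.175), and Sox5 was called without dHLH-Bmal1 replicate 2 (0.0371). In a fit of all 40 libraries the Sox9 and Sox10 calls with WT-Bmal1 (adjusted p = 0.294 and 0.419), the Sox13 call with WT-Bmal1 (0.150), and the Sox10 and Sox6 calls with dHLH-Bmal1 (0.288 and 0.150) were lost. The ratio of Sox9 to Sox10 rose by 1.05 on the log2 scale with WT-Bmal1.

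The dHLH-Bmal1 effect was then compared between lines by a test of the difference itself. Against its effect in aC3, the effect in YUMM2.1 was lower, with a log2 difference of -3.20 for Sox10 (standard error 0.23, adjusted p = 3.5e-07), -2.68 for Sox6 (adjusted p = 3.3e-07), -2.26 for Sox5 (adjusted p = 9.8e-06) and -0.74 for Sox4 (adjusted p = 0.0027). These 4 of 6 members were called, beside 15.5% of all genes. For Sox9 the difference was 1.53 as labelled (standard error 1.0, adjusted p = 0.372) and 2.98 with the labels exchanged (adjusted p = 7.1e-08, 23.6% of all genes called), and without YUMM2.1 EV replicate 2 it was 3.06 (adjusted p = 0.0198). The WT-Bmal1 effect did not differ by this test between YUMM2.1 and aC3 for any of the 6 members as labelled, beside 0.208% of all genes, although 2, Sox5 and Sox6, had an unadjusted p under 0.05, with Sox9 at -1.34 (95% interval -3.25 to 0.58). With the labels exchanged the Sox9 difference was 0.83 (adjusted p = 0.0341), Sox6 -0.76 (0.0018) and Sox5 -1.03 (0.0036), beside 7.58%. With both libraries left out they were 0.89 (0.121), -0.80 (0.0292) and -1.11 (0.0354).

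YUMM1.7 cells held high Sox9 and almost no Sox10 whichever construct they carried. Sox9 was 211 and 221 CPM in EV, 233 and 247 in WT-Bmal1 and 222 and 221 in dHLH-Bmal1 libraries. Sox10 had 17 and 12 counts in EV, 5 and 11 in WT-Bmal1 and 8 and 1 in dHLH-Bmal1 libraries, and Sox6 had 0 to 8 counts in each library and was not tested within this line. The Sox9 log2 fold changes against EV were 0.15 for WT-Bmal1 (95% interval 0.04 to 0.26, adjusted p = 0.363) and 0.04 for dHLH-Bmal1 (95% interval -0.07 to 0.14, adjusted p = 0.862). Sox4 was 201 and 215 CPM in EV, 228 and 191 in WT-Bmal1 and 157 and 176 in dHLH-Bmal1 libraries, and both dHLH-Bmal1 libraries were below the other 4.

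Of 5 members tested in YUMM1.7, 0 were called in WT-Bmal1 against EV, beside 0.138% of all genes, 0 in dHLH-Bmal1 against EV, beside 0.63%, and 1, Sox4, in dHLH-Bmal1 against WT-Bmal1, beside 2.57%. The Sox4 log2 fold change was -0.33 (standard error 0.08, adjusted p = 0.0354), and against EV it was -0.32 (adjusted p = 0.0988, and 0.0288 by DESeq2). An unadjusted p under 0.05 was given to 1 member in each comparison with EV, Sox9 for WT-Bmal1 and Sox4 for dHLH-Bmal1. With the replicate block the call was lost (adjusted p = 0.0566), as it was in a fit of all 40 libraries (adjusted p = 1), and as it was without EV replicate 1 (0.0853) or 2 (0.0793), WT-Bmal1 replicate 1 (0.253), or dHLH-Bmal1 replicate 1 (0.276) or 2 (0.0764), while without WT-Bmal1 replicate 1 or 2 Sox4 was called against EV (0.0076 and 0.0093). The dHLH-Bmal1 effect on Sox5 was lower in YUMM2.1 than in YUMM1.7 (log2 difference -2.06, adjusted p = 6.9e-05), with 1 of 6 members called beside 12.4% of all genes, and that on Sox4 was called with the labels exchanged (-0.42, adjusted p = 0.0316). For Sox9 that difference was 2.16 as labelled (adjusted p = 0.0715), 2.31 with the replicate block (adjusted p = 0.0218) and 3.62 with the labels exchanged (adjusted p = 6.4e-11, beside 20.6% of all genes), and it was called without YUMM2.1 EV replicate 2 (log2 3.67, adjusted p = 0.0010), WT-Bmal1 replicate 1 (0.0206) or WT-Bmal1 replicate 2 (0.0196). For Sox10 the difference was -1.25 (adjusted p = 0.254), and it was called without YUMM1.7 dHLH-Bmal1 replicate 2 (log2 -2.15, adjusted p = 0.0306).

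Between the EV cells of the lines, Sox10 and Sox6 set YUMM1.7 apart from YUMM2.1 by more than any other members. Sox10 was 376-fold lower in YUMM1.7 EV than in YUMM2.1 EV (log2 -8.55, standard error 0.25, adjusted p = 1.4e-12) and Sox6 294-fold lower (log2 -8.20, adjusted p = 9.5e-13). Sox5 (-1.52), Sox4 (-0.80) and Sox13 (-1.72, adjusted p = 0.0343) were lower as well and Sox9 higher (log2 2.03, adjusted p = 0.0076, and 3.48 with the labels exchanged). All 6 members tested were called, beside 38.8% of all genes as labelled and 44.5% with the labels exchanged. The Sox13 call, on 2 to 22 counts a library, was lost with both doubtful libraries left out (adjusted p = 0.109) and without YUMM2.1 EV replicate 1 (0.0714) or 2 (0.0963) or YUMM1.7 EV replicate 2 (0.267). The 5 fibroblast markers summed to 117 CPM in YUMM1.7 EV and 13.8 CPM in YUMM2.1 EV cells, with Pdgfra higher (log2 5.52) and Col1a1 lower (-2.08). Of 3 endothelial markers Cdh5 was higher (3.13, adjusted p = 0.0011), Pecam1 was not called (-0.64, adjusted p = 0.0622) and Kdr was at 0 CPM in both groups. The part of these markers was not tested.

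aC3 EV cells had 13.7-fold less Sox9 than EV cells of the parental line YUMM2.1 (log2 -3.78, standard error 0.71, adjusted p = 0.0078) and less Sox5 (log2 -1.11, adjusted p = 0.00093). These 2 of 6 members were called, beside 2.94% of all genes, and Sox10 (-0.14, adjusted p = 0.751) and Sox6 (0.01, adjusted p = 0.990) were not. The Sox9 difference was -2.33 with the labels exchanged, beside 6.59% of all genes, and -2.26 with both libraries left out (adjusted p = 1.4e-05). Its call was lost without YUMM2.1 EV replicate 2 (log2 -2.26, adjusted p = 0.0848), aC3 EV replicate 1 (adjusted p = 0.130) or aC3 EV replicate 2 (0.0912), while Sox4 was called without YUMM2.1 EV replicate 1 (0.0401). The clone and the loss of Bmal1 cannot be told apart here.

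In B16-F10, Sox9 was lower and Sox10 higher in both libraries of the Bmal1 KO clone than in Ctrl, without passing the threshold. Sox9 was 112 and 101 CPM in Ctrl and 34.1 and 53.1 CPM in Bmal1 KO libraries (log2 -1.29, standard error 0.26, adjusted p = 0.156). Sox10 was 369 and 385 CPM in Ctrl and 448 and 630 CPM in Bmal1 KO libraries (log2 0.51, adjusted p = 0.447). Neither gene overlapped between the groups, and the ratio of Sox9 to Sox10 fell by 1.81 on the log2 scale in Bmal1 KO. As in aC3, the clone and the loss of Bmal1 cannot be told apart.

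Sox11, which only B16-F10 expressed, was 732 and 676 CPM in Ctrl and 470 and 478 CPM in Bmal1 KO libraries (log2 -0.58, adjusted p = 0.282). Sox5 was 71.1 and 66.7 CPM against 47.1 and 39.97 CPM (log2 -0.67, adjusted p = 0.251), while Sox4 and Sox6 overlapped between the groups. By edgeR 0 of 6 members tested were called, beside 0.44% of all genes, and 3 of the 6, Sox9, Sox5 and Sox11, had an unadjusted p under 0.05. For Sox9 the call was made by DESeq2 (adjusted p = 0.0012), without the filter on low counts (0.0028), with the replicate block (log2 -1.32, adjusted p = 0.0231) and in a fit of all 40 libraries (0.0436). It was also made without Bmal1 KO replicate 1 (adjusted p = 3.8e-13) or 2 (9.3e-32), where the spread came from the other libraries alone. The fit of all 40 libraries also called Sox10 (0.0294), Sox5 (0.0077) and Sox11 (0.0460). Sox10 was called without Bmal1 KO replicate 1 (1.0e-08), Sox4 without that library (0.00085), and Sox5 and Sox11 without either Bmal1 KO library.

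With the control hairpin, Sox9 rose and Sox10 fell in YUMM2.1 cells with both constructs. Sox9 was 117 and 115 CPM in EV, 318 and 369 in WT-Bmal1 and 333 and 333 in dHLH-Bmal1 libraries. Both construct groups lay above EV, by 1.56 for WT-Bmal1 (standard error 0.11, adjusted p = 1.4e-08) and 1.52 for dHLH-Bmal1 (adjusted p = 8.5e-09) in log2 units, and the difference between the constructs was not called (-0.04, 95% interval -0.24 to 0.17). Sox10 was 327 and 334 CPM in EV, 99.0 and 100.3 in WT-Bmal1 and 22.7 and 26.1 in dHLH-Bmal1 libraries. The 3 groups were fully separated, with Sox10 3.34-fold lower in WT-Bmal1 (log2 -1.74, adjusted p = 4.3e-09) and 13.6-fold lower in dHLH-Bmal1 (log2 -3.77, adjusted p = 5.5e-13) than in EV, and 4.09-fold lower in dHLH-Bmal1 than in WT-Bmal1 (log2 -2.03, adjusted p = 1.1e-08).

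Sox6 took the same 3 steps, at 118 and 109 CPM in EV, 52.9 and 51.0 in WT-Bmal1 and 23.03 and 30.5 in dHLH-Bmal1 libraries. It was lower than in EV (log2 -1.14 and -2.11, adjusted p = 5.9e-06 and 3.2e-09) and lower in dHLH-Bmal1 than in WT-Bmal1 (log2 -0.97, adjusted p = 0.00061). Sox5 (log2 -1.26 and -1.81) and Sox4 (-0.71 and -0.98) were lower with both constructs than in EV, and neither differed by this test between the constructs. Sox13 was higher with WT-Bmal1 (log2 1.80, standard error 0.49, adjusted p = 0.0126), at 50 and 88 counts against 22 and 20, a call that was lost without EV shNC replicate 1 (0.0602) or 2 (0.106) or WT-Bmal1 shNC replicate 2 (0.130). All 6 members tested were called with WT-Bmal1, beside 22.3% of all genes, 5 of 6 with dHLH-Bmal1, beside 26.4%, and 2 of 6 between the constructs, beside 1.91%. These comparisons share the shNC libraries of EV. The mean log2 ratio of Sox9 to Sox10 was higher than in EV by 3.29 with WT-Bmal1 and 5.28 with dHLH-Bmal1. The 5 fibroblast markers summed to 7.43, 52.9 and 192 CPM in the 3 groups, with Lum at 0. Nearly all of this sum was Col1a1, at 1.98, 49.1 and 189 CPM (log2 4.61 and 6.57 against EV), while Pdgfra stood at 5.39, 3.74 and 2.64 CPM and was not called. Of 3 endothelial markers Cdh5, at 2.84, 12.4 and 7.998 CPM, was higher with both constructs (log2 2.12 and 1.5003, adjusted p = 2.2e-05 and 0.00054). Pecam1 was not called with either (log2 0.52 and 0.28, adjusted p = 0.299 and 0.592), and Kdr was at most 0.136 CPM in these groups. The part of these markers in the SOX differences was not tested.

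**Figure D4:**
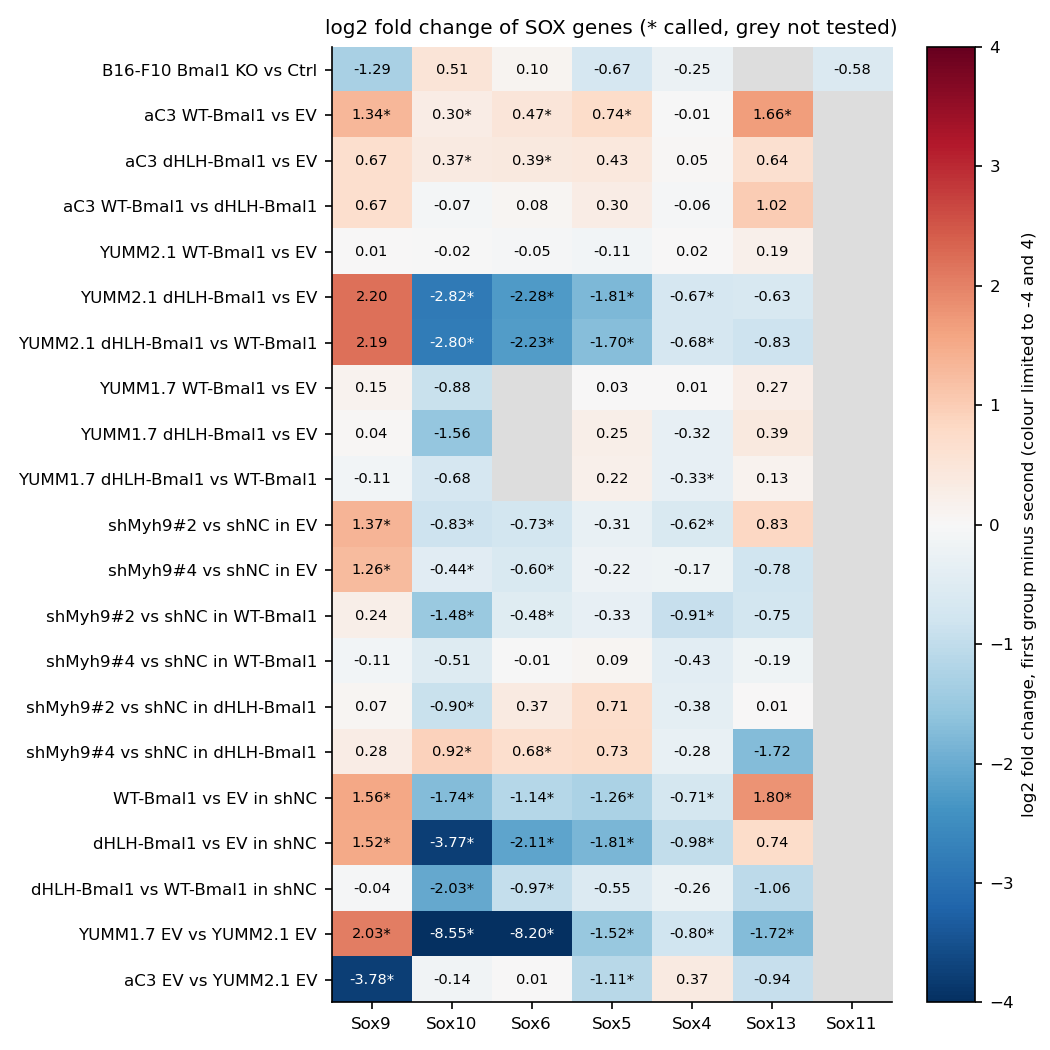
Log2 fold change of 7 members (columns) in 21 comparisons of 2 groups (rows), first group minus second, in numbers and colour, with an asterisk for an adjusted p under 0.05 and grey where the gene was not tested. Sox10 and Sox6 are lower and Sox9 higher in both constructs against EV with shNC, and in aC3 Sox10 and Sox6 are higher with each construct than with EV.

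The hairpins asked whether lower Myh9 went with the same genes, and in EV cells Sox9 rose and Sox10 and Sox6 fell under both. Sox9 was 117 and 115 CPM under shNC, 301 and 299 under shMyh9#2 and 265 and 298 under shMyh9#4, which is 2.58-fold (log2 1.37, standard error 0.11, adjusted p = 4.8e-07) and 2.396-fold higher (log2 1.26, adjusted p = 6.7e-06). Every hairpin library against Myh9 lay above both shNC libraries. Sox10 was 327 and 334 CPM under shNC, 194 and 179 under shMyh9#2 (log2 -0.83, adjusted p = 7.6e-05) and 222 and 273 under shMyh9#4 (log2 -0.44, adjusted p = 0.0374). Sox6 fell from 118 and 109 CPM to 66.9 and 70.5 (log2 -0.73, adjusted p = 0.0019) and to 76.3 and 75.1 (log2 -0.60, adjusted p = 0.0154).

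Sox4 was 510 and 514 CPM under shNC and 337 and 330 CPM under shMyh9#2 (log2 -0.62, adjusted p = 0.00038), and 448 and 471 CPM under shMyh9#4 (log2 -0.17, adjusted p = 0.549). In EV cells 4 of 6 members tested were called under shMyh9#2, beside 6.65% of all genes, and 3 of 6 under shMyh9#4, beside 1.71%. Col1a1 was higher by 3.40 and 1.58 on the log2 scale, and the 5 fibroblast markers summed to 25.8 and 10.6 CPM against 7.43 under shNC, with Pdgfra not called. Of the endothelial markers Cdh5 was higher under both hairpins (log2 1.83 and 1.92, adjusted p = 0.00039 and 0.00049). Pecam1 was not called under either (log2 0.29 and -0.34, adjusted p = 0.688 and 0.833), and Kdr was at most 0.061 CPM in these groups. The part of these markers was not tested. In a fit of all 40 libraries the Sox9 calls were lost for shMyh9#2 (adjusted p = 0.0552) and shMyh9#4 (0.201), as was the Sox10 call for shMyh9#4 (0.277). The Sox9 log2 fold changes in that fit were 1.36 and 1.26, each with a standard error of 0.42. It also held the YUMM2.1 libraries whose labels are in doubt, and their part in the wider standard error was not tested. The Sox10 call under shMyh9#4 was lost in 14 of the 18 fits that left out 1 library, with adjusted p of at most 0.331, and so was that of Sox6 without EV shNC replicate 1 (0.215) or 2 (0.0772) or shMyh9#4 replicate 1 (0.0698) or 2 (0.173).

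In WT-Bmal1 cells shMyh9#2 lowered Sox10 further, with no call for Sox9. Sox10 went from 99.0 and 100.3 CPM under shNC to 34.9 and 37.0 CPM under shMyh9#2 (log2 -1.48, standard error 0.11, adjusted p = 2.4e-07), and Sox4 from 313 and 315 to 178 and 156 CPM (log2 -0.91, adjusted p = 9.0e-06). Sox9 was 318 and 369 CPM under shNC and 410 and 406 under shMyh9#2 (log2 0.24, 95% interval 0.04 to 0.44, adjusted p = 0.216). Sox6 was called as well (log2 -0.48, adjusted p = 0.0451), a call that was lost with the replicate block (adjusted p = 0.0564) and in 12 of 18 fits that left out 1 library (adjusted p of at most 0.250). Thus 3 of 6 members tested were called, all lower, beside 4.76% of all genes. Under shMyh9#4, Sox10 was 70.0 and 69.0 CPM and Sox4 228 and 233 CPM, each below shNC without overlap (log2 -0.51 and -0.43, adjusted p = 0.0584 for both), and edgeR called 0 of 6, beside 0.236%. An unadjusted p under 0.05 was given to 2 of these 6, and DESeq2 called both (adjusted p = 0.0098 for Sox10 and 0.0015 for Sox4). By edgeR Sox10 was called without EV shMyh9#4 replicate 1 (0.0498) or 2 (0.0479) and Sox4 without dHLH-Bmal1 shMyh9#2 replicate 1 (0.0469).

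In dHLH-Bmal1 cells Sox10 fell under one hairpin and rose under the other. Sox10 was 22.7 and 26.1 CPM under shNC, 14.4 and 12.4 CPM under shMyh9#2, from 66 and 174 counts, and 46.1 and 45.1 CPM under shMyh9#4, from 163 and 256 counts. The 3 groups did not overlap, and Sox10 was lower under shMyh9#2 (log2 -0.90, standard error 0.13, adjusted p = 0.0030) and higher under shMyh9#4 (log2 0.92, standard error 0.12, adjusted p = 0.00047). Sox6 was higher under shMyh9#4, at 41.0 and 43.2 CPM against 23.03 and 30.5 (log2 0.68, adjusted p = 0.0051). Sox9 was 373 and 333 CPM under shMyh9#2 and 374 and 433 CPM under shMyh9#4 against 333 and 333 under shNC, and neither difference was called by edgeR (adjusted p = 0.893 and 0.0717).

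By edgeR Sox10 alone of 6 members was called under shMyh9#2 in dHLH-Bmal1 cells, beside 0.559% of all genes, and 2 of 6, both higher, under shMyh9#4, beside 15.1%. DESeq2 also called Sox4 under shMyh9#2 (log2 -0.37, adjusted p = 0.0157). Under shMyh9#4 DESeq2 also called Sox9 (0.31, adjusted p = 0.0291), Sox4 (-0.26, 0.0400) and Sox13 (-1.70, 0.0428). The 2 dHLH-Bmal1 shMyh9#4 libraries were among the shallowest of the series, and the lowest total, 3643332 counts, was one of them. The Sox10 call under shMyh9#2 was lost without shNC replicate 2 (adjusted p = 0.0803) or shMyh9#2 replicate 2 (0.104), and the Sox6 call under shMyh9#4 without shNC replicate 1 (0.100) or shMyh9#4 replicate 2 (0.0830). Calls under shMyh9#4 were gained for Sox4 without shMyh9#2 replicate 1 (0.0403), for Sox5 without shMyh9#4 replicate 1 (0.0490) or in a fit of all 40 libraries (0.0302), and for Sox13, on 7 and 4 counts, without that library (0.0496) or EV shMyh9#4 replicate 1 (0.0446) or 2 (0.0452). Within dHLH-Bmal1 cells the fibroblast marker sum was 192, 254 and 213 CPM under shNC, shMyh9#2 and shMyh9#4.

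The effect of each hairpin was compared between constructs by a test of the difference, with the shNC libraries shared. The Sox9 effect of shMyh9#2 was lower than in EV cells, by a log2 difference of -1.13 in WT-Bmal1 (standard error 0.15, adjusted p = 0.00015) and -1.298 in dHLH-Bmal1 cells (adjusted p = 7.3e-05), and so was that of shMyh9#4 (-1.37, adjusted p = 0.00019, and -0.98, adjusted p = 0.00094). In a fit of all 40 libraries these 4 calls were lost (log2 difference -1.12, -1.29, -1.37 and -0.9993, adjusted p = 0.296, 0.277, 0.405 and 0.318). Sox9 under shNC was 2.95-fold and 2.87-fold higher in those cells than in EV cells. For Sox10 the shMyh9#2 effect was lower in WT-Bmal1 than in EV cells (log2 difference -0.65, adjusted p = 0.0194, lost in the fit of all 40 libraries, adjusted p = 0.118, and in 7 of 18 fits that left out 1 library with adjusted p of at most 0.120), and the shMyh9#4 effect was higher in dHLH-Bmal1 than in EV cells by 1.36 (adjusted p = 0.00012). For Sox6 the effects in dHLH-Bmal1 cells were higher than in EV cells by 1.10 for shMyh9#2 (adjusted p = 0.0029) and 1.29 for shMyh9#4 (adjusted p = 0.00083). Called members numbered 2 of 6 for shMyh9#2 in WT-Bmal1 against EV cells, beside 5.18% of all genes, 2 for shMyh9#2 in dHLH-Bmal1, beside 3.29%, 1 for shMyh9#4 in WT-Bmal1, beside 0.741%, and 3 for shMyh9#4 in dHLH-Bmal1, beside 8.51%. The ratio of Sox9 to Sox10 rose in EV cells by 2.196 under shMyh9#2 and 1.703 under shMyh9#4, in WT-Bmal1 cells by 1.72 and 0.40, and in dHLH-Bmal1 cells it rose by 0.94 under shMyh9#2 and fell by 0.63 under shMyh9#4.

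**Figure D5:**
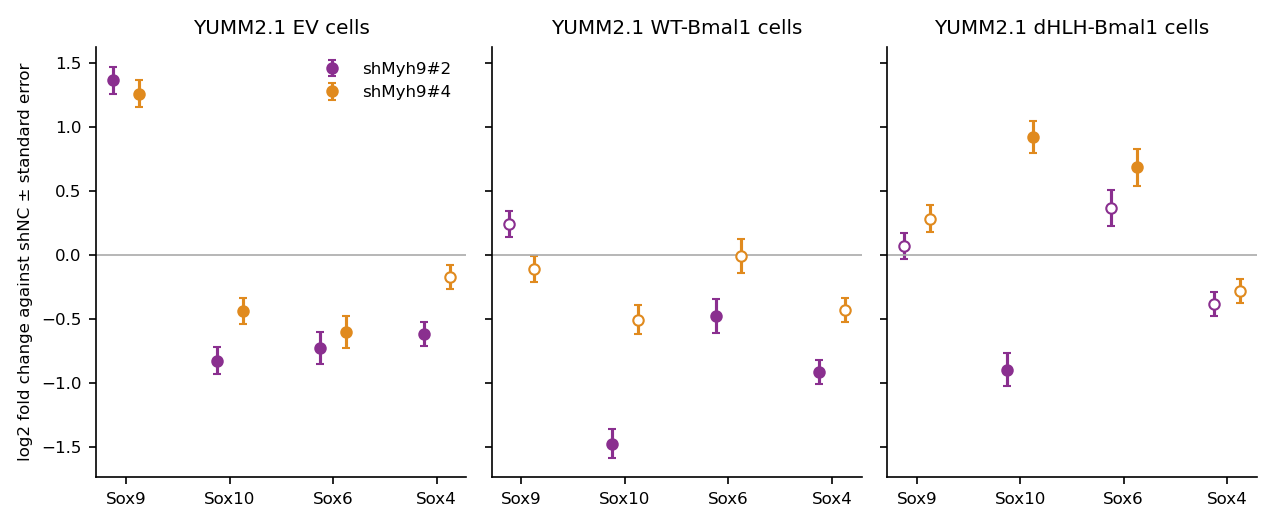
Log2 fold change against shNC with its standard error (y axis) of Sox9, Sox10, Sox6 and Sox4 for shMyh9#2 (purple) and shMyh9#4 (orange) in YUMM2.1 cells with each of the 3 constructs, with filled points for an adjusted p under 0.05. Sox9 is above 1 in EV cells only, and Sox10 in dHLH-Bmal1 cells is at -0.90 under shMyh9#2 and 0.92 under shMyh9#4.

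At the low end, Sox8, of the SoxE family, had 0 to 3 counts in every library and was tested nowhere, and Sox11 had 0 to 3 counts in every library outside B16-F10, where it had 10013 to 15260. Sox13 had at most 111 counts in a library. Over the other members, Sox5 and Sox6 had their lowest YUMM2.1 levels in cells with dHLH-Bmal1, and Sox4 was measured in every library at 715 to 5216 counts.

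Genes that textbooks place downstream of or beside Sox10 were read from a list of 28 written with earlier results known, of which 12 were tested in YUMM2.1. In dHLH-Bmal1 against EV, 5 of these 12 were lower and 0 higher, beside 13.2% of all genes called in either direction, with a median log2 fold change of -1.19 against -0.01 over all genes. Those with the largest changes were Erbb3, a neuregulin receptor of glia and melanoma (-3.85), Egr2, a factor of myelinating glia (-3.81), and Cdh19, a cadherin of Schwann cell precursors (-3.25). With shNC, where 22.3% of all genes were called with WT-Bmal1 and 26.4% with dHLH-Bmal1, 13 of the list were tested, 6 lower and 1 higher with WT-Bmal1 (Ngfr, a neural crest receptor, -2.32, Egr2 -2.17, Erbb3 -1.84) and 6 lower and 1 higher with dHLH-Bmal1 (Erbb3 -3.73, Ngfr -3.31, Cdh19 -2.95), where the one higher gene was S100b, a calcium-binding protein of glia and melanoma (0.62 and 1.14). In aC3, beside 11.2% and 10.9% of all genes, 4 of 12 were higher with WT-Bmal1 (among them S100b 1.17 and Cdh19 0.70) and Ngfr was lower (-0.84), while with dHLH-Bmal1 2 were higher (S100b 0.68, Cdh19 0.36) and 1 lower, Foxd3, an early neural crest factor (-0.64).

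Of the same 13 genes, 3 were lower under shMyh9#2 in EV cells, beside 6.65% of all genes, Foxd3 (-1.13), Ngfr (-1.09) and Cdh19 (-0.98), and 1 under shMyh9#4, beside 1.71%, Ngfr (-0.67). In WT-Bmal1 cells Erbb3 (-1.61) and Ngfr (-0.61) were lower under shMyh9#2, beside 4.76%. In dHLH-Bmal1 cells 3 were higher under shMyh9#4, beside 15.1%, among them Ngfr (1.05) and S100b (0.74). Between YUMM1.7 EV and YUMM2.1 EV, beside 38.8% of all genes called, 8 of 12 were lower, led by Cdh19 (-8.93), S100b (-8.34) and Erbb3 (-8.18), and 2 higher, Pax3 (1.22) and Tfap2a (0.62), factors that act early in the melanocyte lineage. In B16-F10 0 of 20 tested were called by edgeR, beside the 0.44% given above.

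A list of 20 cartilage and matrix genes placed downstream of Sox9 was read in the same way, and few of its genes were tested. In YUMM2.1 dHLH-Bmal1 against EV, 7 were tested and, beside 13.2% of all genes called, 3 were lower, Col11a1 (-2.50) and Col27a1 (-1.52), both collagen chains, and Chst11, a chondroitin sulfotransferase (-1.74), while Wwp2, a ubiquitin ligase gene that hosts a cartilage microRNA, was higher (1.15). With shNC, 6 were tested, beside 22.3% and 26.4% of all genes called, and Col11a1 (-1.71 and -3.42) and Col27a1 (-1.35 and -1.48) were lower and Wwp2 higher (1.25 and 1.57) with WT-Bmal1 and dHLH-Bmal1, with Chst11 also lower in dHLH-Bmal1 (-1.14). Under shMyh9#2 in EV cells, beside 6.65% of all genes called, Col27a1 (-1.60) and Col11a1 (-1.25) were lower and Wwp2 higher (0.53). Col11a1 was also lower under shMyh9#4 in EV cells (-1.06, beside 1.71%) and under shMyh9#2 in WT-Bmal1 cells (-0.92, beside 4.76%). It was higher under shMyh9#4 in dHLH-Bmal1 cells (1.41, beside 15.1%). In aC3, beside 11.2% and 10.9% of all genes, Col11a1 was higher with WT-Bmal1 (0.51) and Col27a1 with dHLH-Bmal1 (0.44). Between YUMM1.7 EV and YUMM2.1 EV, beside 38.8%, the lower genes included Col9a1 (-7.16), Col9a3 (-7.06) and Col2a1 (-7.05), while Ccn2 (5.44) and Wwp2 (0.55) were higher. The standard errors of these 3 lower genes ran from 23546000 to 30854000, so the size of their change was not measured. Col27a1 (-4.78, standard error 0.37), Col11a1 (-3.82, 0.15) and Chst11 (-3.59, 0.33) were lower as well.

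Of 12 other SOX genes, 5 reached 10 counts in any library. Sox2, a stem cell and neural crest factor, had up to 1280 counts outside B16-F10, where it had 0 to 2, and was lower in dHLH-Bmal1 than in EV in YUMM2.1 (log2 -0.87, adjusted p = 0.0106) and with shNC (-0.76, adjusted p = 0.0013). Sox12, also a SoxC gene, had 223 to 262 counts in YUMM1.7 and 0 to 5 elsewhere. Sox7 had 49 to 66 counts in YUMM1.7, and Sox21 had 58 to 94 in B16-F10, 32 to 52 in YUMM1.7 and 0 to 3 elsewhere. Sox3 had 25 and 17 counts in YUMM2.1 EV replicate 1 and WT-Bmal1 replicate 1 and at most 7 in any other library.

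The genes whose mean log2 CPM went most with Sox10 over the 20 groups, among 14110 genes, were Gm36944 (Pearson's r = 0.990), Zfp536 (0.986), Cdh19 (0.981), Acot1 (0.977) and Pde4b (0.973), and Sox6 stood at 0.967. For Sox9 they were Ptprk (0.968), Crlf2 (0.964), Aig1 (0.961), Kcnd1 (0.960) and Lgals3 (0.951). Over the 9 hairpin groups and 13339 genes, 4 of the 5 genes most like Sox10 were Ecel1 (0.989), Nkd2 (0.988), Spsb4 (0.988) and Plekhb1 (0.986), and those most like Sox9 were Nab1 (0.981), Arap3 (0.962), Dab2 (0.959), Tspan9 (0.958) and Podnl1 (0.949). Between Sox9 and Sox10 themselves r was -0.556 over the 20 groups and -0.671 over the 9 hairpin groups. These values describe groups that share lines and vectors, so no p is given.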

How the data were processed

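RNA of cultured cells was made into 40 QuantSeq 3′ libraries and read as single 75-base reads. The authors aligned reads with bowtie2 and counted them with RSEM (version 1.2.3 in the submitters' processing notes) on mm10, and the deposited values are estimated counts per Ensembl gene, here found to be whole numbers. Neither the strand setting nor the release of Ensembl is given in the sources used here. Symbols were found for 99.63% of 51789 genes.

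Members and gene lists were chosen with earlier results of these data known. Genes passing filterByExpr were tested with edgeR 4.0.16 (R 4.3.3, TMM, quasi-likelihood), adjusted by Benjamini-Hochberg over all genes and called at 0.05. Fits held B16-F10, aC3, YUMM2.1, YUMM1.7, the 9 hairpin groups, or the 9 construct groups together for comparisons of lines and differences of effects. This gave 21 comparisons of 2 groups and 7 differences. Named list genes were up to 3 called genes with the largest change in each direction per comparison. More lower genes were named for the cartilage and matrix list between YUMM1.7 EV and YUMM2.1 EV. Some genes are counted but not reported here by name. Alternatives were DESeq2 1.42.0 (test and size factors), no filter, a mean of at least 10 counts, a replicate block, exchanged or omitted YUMM2.1 libraries, 1 fit of all libraries, the 4 groups used by the study, each library left out, and 5 in place of 0.5 in the ratio. The script was tested on simulated data. Library depth limits precision for genes with few counts.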

Additional observations from a re-analysis of the deposited data

Results flagged for a closer look

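Effects of the same contrast differed between lines or between constructs in 13 tests of the difference itself, on the log2 scale, by edgeR over all genes. For the dHLH-Bmal1 effect, YUMM2.1 minus aC3, the difference was -0.74 for Sox4 (adjusted p = 0.00266), -2.26 for Sox5 (adjusted p = 9.8e-06), -2.68 for Sox6 (adjusted p = 3.3e-07) and -3.201 for Sox10 (adjusted p = 3.5e-07). For the dHLH-Bmal1 effect, YUMM2.1 minus YUMM1.7, the difference was -2.06 for Sox5 (adjusted p = 6.9e-05). For the shMyh9#2 effect, WT-Bmal1 minus EV, the difference was -1.13 for Sox9 (adjusted p = 0.00015) and -0.65 for Sox10 (adjusted p = 0.0194). For the shMyh9#2 effect, dHLH-Bmal1 minus EV, the difference was 1.099 for Sox6 (adjusted p = 0.00294) and -1.298 for Sox9 (adjusted p = 7.3e-05). For the shMyh9#4 effect, WT-Bmal1 minus EV, the difference was -1.37 for Sox9 (adjusted p = 0.00019). For the shMyh9#4 effect, dHLH-Bmal1 minus EV, the difference was 1.29 for Sox6 (adjusted p = 0.00083), -0.98 for Sox9 (adjusted p = 0.00094) and 1.36 for Sox10 (adjusted p = 0.00012). The comparisons share EV and shNC libraries. In a fit of all 40 libraries the 4 Sox9 calls (adjusted p = 0.296, 0.277, 0.405 and 0.318 in the order given) and the Sox10 call for shMyh9#2 in WT-Bmal1 (0.118) were lost.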

How the results depend on the processing

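All values below are log2 fold changes with the adjusted p of the named setting. Of 1134 alternatives to the 56 Sox9 and Sox10 results, 1028 kept direction and side of the threshold, 46 lost a call, 42 gained one and 18 changed sign. Over all members the numbers were 3123 of 3363 kept, 101 lost, 77 gained and 62 changed in sign. For the ratio, 112 of 115 alternatives moved by less than the pooled SD of the 2 groups compared. Leaving out 1 of 2 libraries cannot move the ratio by more than that SD, so those alternatives could not fail. In YUMM2.1 the SD of EV and WT-Bmal1 includes the 2 doubtful libraries. Many of the gene fits left out a library of neither group compared, where the fold change can hardly move. The numbers kept are therefore no measure of robustness. The fit of all 40 libraries took 1 spread per gene over all lines and held the 2 doubtful YUMM2.1 libraries as labelled. The cause of each change was not tested. Neither the labels nor the study say whether same-numbered libraries were paired. Deviations of same-numbered libraries correlated at 0.354 on average in YUMM2.1, 0.084 in B16-F10, 0.060 in aC3, -0.0059 in YUMM1.7 and -0.0046 over the hairpin groups, so the replicate block is an alternative. By DESeq2's Wald test, Sox9 was -1.28 (adjusted p = 0.00121) in B16-F10 Bmal1 KO against Ctrl, -0.0036 (adjusted p = 1) in YUMM2.1 WT-Bmal1 against EV, 0.31 (adjusted p = 0.0291) in shMyh9#4 against shNC in dHLH-Bmal1. Sox10 was -0.51 (adjusted p = 0.00977) in shMyh9#4 against shNC in WT-Bmal1. With DESeq2's size factors in edgeR, Sox10 was -0.43 (adjusted p = 0.0519) in shMyh9#4 against shNC in EV. With no filter on low counts, Sox9 was -1.29 (adjusted p = 0.00283) in B16-F10 Bmal1 KO against Ctrl, -0.0028 (adjusted p = 1) in YUMM2.1 WT-Bmal1 against EV, 2.18 (adjusted p = 4.9e-33) in YUMM2.1 dHLH-Bmal1 against EV, 2.18 (adjusted p = 3.3e-33) in YUMM2.1 dHLH-Bmal1 against WT-Bmal1, 1.55 (adjusted p = 1.0e-08) for the difference in the dHLH-Bmal1 effect, YUMM2.1 minus aC3, -1.31 (adjusted p = 9.0e-06) for the difference in the WT-Bmal1 effect, YUMM2.1 minus aC3, 2.16 (adjusted p = 2.2e-31) for the difference in the dHLH-Bmal1 effect, YUMM2.1 minus YUMM1.7. Sox10 was -0.43 (adjusted p = 0.0581) in shMyh9#4 against shNC in EV, -0.52 (adjusted p = 0.0201) in shMyh9#4 against shNC in WT-Bmal1. In this setting the Sox9 standard error in YUMM2.1 dHLH-Bmal1 against EV was 0.175, although the EV libraries held 221 and 809 counts. The unfiltered Sox9 p-values that involve YUMM2.1 therefore do not measure the spread between those libraries. With a minimum mean of 10 counts, Sox5 was 0.0014 (adjusted p = 1) for the difference in the shMyh9#2 effect, WT-Bmal1 minus EV. With the replicate number as a block, Sox9 was -1.32 (adjusted p = 0.0231) in B16-F10 Bmal1 KO against Ctrl, 2.596 (adjusted p = 0.00078) in YUMM2.1 dHLH-Bmal1 against EV, 2.57 (adjusted p = 0.00081) in YUMM2.1 dHLH-Bmal1 against WT-Bmal1, 2.31 (adjusted p = 0.0218) for the difference in the dHLH-Bmal1 effect, YUMM2.1 minus YUMM1.7. With the 2 YUMM2.1 labels exchanged, Sox4 was -0.12 (adjusted p = 0.633) in YUMM2.1 WT-Bmal1 against EV, -0.12 (adjusted p = 0.653) for the difference in the WT-Bmal1 effect, YUMM2.1 minus aC3. Sox9 was 2.18 (adjusted p = 0.00101) in YUMM2.1 WT-Bmal1 against EV, 3.66 (adjusted p = 2.4e-06) in YUMM2.1 dHLH-Bmal1 against EV, 1.48 (adjusted p = 0.00018) in YUMM2.1 dHLH-Bmal1 against WT-Bmal1, 2.98 (adjusted p = 7.1e-08) for the difference in the dHLH-Bmal1 effect, YUMM2.1 minus aC3, 0.83 (adjusted p = 0.0341) for the difference in the WT-Bmal1 effect, YUMM2.1 minus aC3, 3.62 (adjusted p = 6.4e-11) for the difference in the dHLH-Bmal1 effect, YUMM2.1 minus YUMM1.7. Sox6 was -0.097 (adjusted p = 0.624) in aC3 EV against YUMM2.1 EV. With both of these libraries left out, Sox4 was -0.10 (adjusted p = 1) in YUMM2.1 WT-Bmal1 against EV, -0.083 (adjusted p = 0.877) for the difference in the WT-Bmal1 effect, YUMM2.1 minus aC3. Sox9 was 2.21 (adjusted p = 0.00333) in YUMM2.1 WT-Bmal1 against EV, 3.695 (adjusted p = 4.4e-07) in YUMM2.1 dHLH-Bmal1 against EV, 1.48 (adjusted p = 0.00236) in YUMM2.1 dHLH-Bmal1 against WT-Bmal1, 3.06 (adjusted p = 1.7e-06) for the difference in the dHLH-Bmal1 effect, YUMM2.1 minus aC3, 0.89 (adjusted p = 0.121) for the difference in the WT-Bmal1 effect, YUMM2.1 minus aC3, 3.67 (adjusted p = 2.9e-08) for the difference in the dHLH-Bmal1 effect, YUMM2.1 minus YUMM1.7. Sox6 was -0.075 (adjusted p = 0.844) in aC3 EV against YUMM2.1 EV. In 1 fit of all 40 libraries, Sox9 was -1.28 (adjusted p = 0.0436) in B16-F10 Bmal1 KO against Ctrl, 1.34 (adjusted p = 0.294) in aC3 WT-Bmal1 against EV, 2.197 (adjusted p = 0.00038) in YUMM2.1 dHLH-Bmal1 against EV, 2.19 (adjusted p = 0.00039) in YUMM2.1 dHLH-Bmal1 against WT-Bmal1, 1.36 (adjusted p = 0.0552) in shMyh9#2 against shNC in EV, 1.26 (adjusted p = 0.201) in shMyh9#4 against shNC in EV, 2.17 (adjusted p = 0.017) for the difference in the dHLH-Bmal1 effect, YUMM2.1 minus YUMM1.7, -1.12 (adjusted p = 0.296) for the difference in the shMyh9#2 effect, WT-Bmal1 minus EV, -1.29 (adjusted p = 0.277) for the difference in the shMyh9#2 effect, dHLH-Bmal1 minus EV, -1.37 (adjusted p = 0.405) for the difference in the shMyh9#4 effect, WT-Bmal1 minus EV, -0.9993 (adjusted p = 0.318) for the difference in the shMyh9#4 effect, dHLH-Bmal1 minus EV. Sox10 was 0.52 (adjusted p = 0.0294) in B16-F10 Bmal1 KO against Ctrl, 0.30 (adjusted p = 0.419) in aC3 WT-Bmal1 against EV, 0.38 (adjusted p = 0.288) in aC3 dHLH-Bmal1 against EV, -0.44 (adjusted p = 0.277) in shMyh9#4 against shNC in EV, -0.64 (adjusted p = 0.118) for the difference in the shMyh9#2 effect, WT-Bmal1 minus EV. Sox4 was -0.0033 (adjusted p = 1) in YUMM1.7 WT-Bmal1 against EV.

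With each library left out in turn, where a lone library is assumed to vary like the other groups, Sox9 ran from -1.66 to -0.995 in B16-F10 Bmal1 KO against Ctrl, from 1.13 to 1.57 in aC3 WT-Bmal1 against EV, from -1.42 to 1.505 in YUMM2.1 WT-Bmal1 against EV, from 1.48 to 3.61 in YUMM2.1 dHLH-Bmal1 against WT-Bmal1, from 1.46 to 3.69 in YUMM2.1 dHLH-Bmal1 against EV, from -0.14 to 0.071 in dHLH-Bmal1 against WT-Bmal1 in shNC, from -0.015 to 0.15 in shMyh9#2 against shNC in dHLH-Bmal1, from -4.51 to -2.26 in aC3 EV against YUMM2.1 EV, from 0.81 to 3.06 for the difference in the dHLH-Bmal1 effect, YUMM2.1 minus aC3, from -2.74 to 0.17 for the difference in the WT-Bmal1 effect, YUMM2.1 minus aC3, from 1.42 to 3.67 for the difference in the dHLH-Bmal1 effect, YUMM2.1 minus YUMM1.7. Sox10 ran from 0.23 to 0.75 in B16-F10 Bmal1 KO against Ctrl, from 0.28 to 0.31 in aC3 WT-Bmal1 against EV, from 0.29 to 0.43 in aC3 dHLH-Bmal1 against EV, from -0.13 to 0.0083 in aC3 WT-Bmal1 against dHLH-Bmal1, from -0.20 to 0.14 in YUMM2.1 WT-Bmal1 against EV, from -2.82 to 0.21 in YUMM1.7 dHLH-Bmal1 against WT-Bmal1, from -0.57 to -0.30 in shMyh9#4 against shNC in EV, from -0.69 to -0.58 for the difference in the shMyh9#2 effect, WT-Bmal1 minus EV, from -0.53 to -0.50 in shMyh9#4 against shNC in WT-Bmal1, from -0.21 to 0.068 for the difference in the shMyh9#4 effect, WT-Bmal1 minus EV, from -0.99 to -0.76 in shMyh9#2 against shNC in dHLH-Bmal1, from -0.15 to 0.087 for the difference in the shMyh9#2 effect, dHLH-Bmal1 minus EV, from -2.15 to 0.88 for the difference in the dHLH-Bmal1 effect, YUMM2.1 minus YUMM1.7. Sox4 ran from -0.036 to 0.13 in aC3 dHLH-Bmal1 against EV, from -0.086 to 0.075 in aC3 WT-Bmal1 against EV, from -0.12 to 0.0028 in aC3 WT-Bmal1 against dHLH-Bmal1, from -0.088 to 0.12 in YUMM2.1 WT-Bmal1 against EV, from -0.13 to 0.13 in YUMM1.7 WT-Bmal1 against EV, from -0.068 to 0.12 for the difference in the WT-Bmal1 effect, YUMM2.1 minus aC3. Sox5 ran from -0.28 to 0.077 in YUMM2.1 WT-Bmal1 against EV, from -0.26 to 0.25 for the difference in the shMyh9#2 effect, WT-Bmal1 minus EV. Sox6 ran from -0.25 to 0.11 in YUMM2.1 WT-Bmal1 against EV, from -0.043 to 0.015 in shMyh9#4 against shNC in WT-Bmal1, from -0.075 to 0.12 in aC3 EV against YUMM2.1 EV. Sox13 ran from -0.45 to 1.86 in YUMM1.7 WT-Bmal1 against EV, from -0.32 to 1.99 in YUMM1.7 dHLH-Bmal1 against EV, from -0.38 to 0.52 in YUMM1.7 dHLH-Bmal1 against WT-Bmal1, from -0.052 to 1.84 for the difference in the shMyh9#4 effect, WT-Bmal1 minus EV, from -1.77 to 0.31 for the difference in the shMyh9#4 effect, dHLH-Bmal1 minus EV, from -0.56 to 0.15 in shMyh9#4 against shNC in WT-Bmal1, from -0.26 to 0.30 in shMyh9#2 against shNC in dHLH-Bmal1.

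The number of genes called depended on the setting, from 64 to 1952 in B16-F10, from 391 to 2000 and from 160 to 1993 in aC3 with WT-Bmal1 and dHLH-Bmal1 against EV, from 0 to 101 in YUMM2.1 WT-Bmal1 and from 1767 to 4114 in dHLH-Bmal1 against EV, and from 20 to 305 for shMyh9#4 in WT-Bmal1 cells. With 2 libraries a group, and few counts of Sox10 in YUMM1.7, Sox9 in aC3 and Sox13 in every line, differences in these genes were limited by depth.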
